A study of Mus musculus with 4 samples.

Results

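Committed oligodendrocyte precursors of the mouse hippocampus are described here, as 332 nuclei of 55295 that passed the filters. They were chosen by a rule on detected genes: at least 3 of Bcas1, Enpp6, Bmp4, Gpr17, Itpr2, Neu4 and Tcf7l2 with a UMI (a unique molecular identifier, 1 counted transcript), at least 1 of the key genes Enpp6, Bmp4 and Gpr17 among them, and at most 1 UMI of Pdgfra. Nuclei with 2 or more of Gja1, Fgfr3, Inpp5d, Csf1r and Flt1, or with more than 3 UMIs of Gad1, Gad2 and Slc17a7 together, were left out. WT replicates 1 and 2 gave 117 and 77 of these nuclei, and Cyfip2+/R87C (KI) replicates 1 and 2 gave 73 and 65.

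The study profiled hippocampal nuclei of 2 WT mice and 2 KI mice that carry 1 copy of the R87C change of Cyfip2, a subunit of the actin-regulating WAVE complex, on the C57BL/6N background. The mice were littermates at the oldest age that the study examined, both hippocampi of a mouse were frozen together, and each mouse gave 1 library. The labels give no age and put all libraries in 1 batch, and the treatment label of KI replicate 2 reads R88C, while its protocol reads R87C. The change is carried from the germline, so every cell type of a KI mouse holds it.

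Oligodendrocytes, the cells that wrap axons in myelin, arise through life from oligodendrocyte precursor cells (OPC), which divide and carry the growth factor receptor Pdgfra. A precursor that commits to differentiation loses Pdgfra and passes through a short stage before it makes myelin. Genes of this stage include Bmp4, a secreted growth factor, Gpr17, a receptor that holds back maturation, Enpp6, an enzyme of choline metabolism, Neu4, a sialidase, Tcf7l2, a transcription factor of the Wnt pathway, Itpr2, a calcium channel of the endoplasmic reticulum, and Bcas1, which marks cells that begin to myelinate. In GRCm38 Enpp6 lies on chromosome 8 (46986887 to 47096762, plus strand), Bmp4 on chromosome 14 (46383520 to 46390669, minus strand) and Bcas1 on chromosome 2 (170346991 to 170427845, minus strand).

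The 4 libraries held 12555 to 15981 nuclei after filtering and 73009975 to 80913580 UMIs in all. The committed precursors had a median of 3140 and 3251 UMIs in WT and of 3637 and 3901 in KI, and their sums came to 541427, 311674, 344084 and 405395 UMIs (WT replicates 1 and 2, then KI replicates 1 and 2, the order of all sets of 4 values below). Malat1, a transcript retained in the nucleus, took 9.23% and 9.83% of these UMIs in WT and 14.1% and 12.2% in KI. Pairs of libraries shared 40 to 67 barcodes, and no barcode was a committed precursor in both libraries of a pair. Of the 332 nuclei, 31 (9.34%) had a doublet score above 0.25, against 5.90% of all nuclei.

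The label held for some of these nuclei and not for others. Of the 332 nuclei, 253 had 1 of the 3 key genes, 58 had 2 and 21 had all 3, and in 189 (56.9%) the key genes rested on a single UMI. The 79 nuclei with 2 or 3 key genes are called core nuclei below. At the edge of the rule stood 158 nuclei with exactly 3 of the 7 genes inside it and 584 with 2 of the 7, a key gene and the same limits just outside. A further 237 nuclei had at least 3 of the 7 genes and no key gene, and 45 would have been members but for a second UMI of Pdgfra, against 62 members with 1 UMI of it.

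Genes of the same stage that the rule did not use had a higher median in the core nuclei than in the rest, with wide overlap. A list of 20 further genes of committed precursors and newly formed oligodendrocytes, among them the kinase Fyn, the adhesion protein Tns3 and the long noncoding RNA 9630013A20Rik, had a median of 7.51 UMIs per 1000 UMIs in the core nuclei, with quartiles of 3.65 and 14.0. It had 1.93 in the 130 nuclei with 1 key gene and under 4 of 9 mature oligodendrocyte genes (Mog, Mag, Mal, Opalin, Mobp, Cldn11, Ermn, Aspa and Ugt8a), with quartiles of 0.622 and 10.5, and 0.828 in the 123 nuclei with 1 key gene and at least 4 of these 9. For comparison, 862 nuclei chosen as OPC had a median of 1.15 and 5915 chosen as mature oligodendrocytes had 0.618. The second of these subsets thus spanned the range from OPC to core nuclei, and the third had levels near those of mature oligodendrocytes. These are descriptions without a test, since all classes were chosen by measured genes.

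Other lists of the lineage were read without the genes that chose a class or split the subsets, a step taken after the data had been seen. The 11 remaining genes of OPC had a median of 3.58 UMIs per 1000 in core nuclei, of 4.11 in nuclei with 1 key gene and few mature genes and of 1.41 in those with at least 4 mature genes, against 9.19 in OPC and 1.06 in mature oligodendrocytes. The 19 remaining genes of mature oligodendrocytes and myelin stood at 6.41, 2.18 and 8.00 in the 3 subsets, at 1.54 in OPC and at 9.66 in mature oligodendrocytes. Core nuclei thus lay between both neighbouring classes for both lists. The 9 neuron markers that the rule did not limit stood at 2.23, 2.74 and 2.74 in the 3 subsets, against 3.03 in OPC and 3.91 in mature oligodendrocytes, and the 7 markers of vessels and fibroblasts without Flt1 had a median of 0 in each. The median doublet score was 0.102, 0.0971 and 0.0873 in the 3 subsets, 0.0230 in OPC and 0.0364 in mature oligodendrocytes, and the part of doublets in the mixed profile was not tested.

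**Figure D1:**
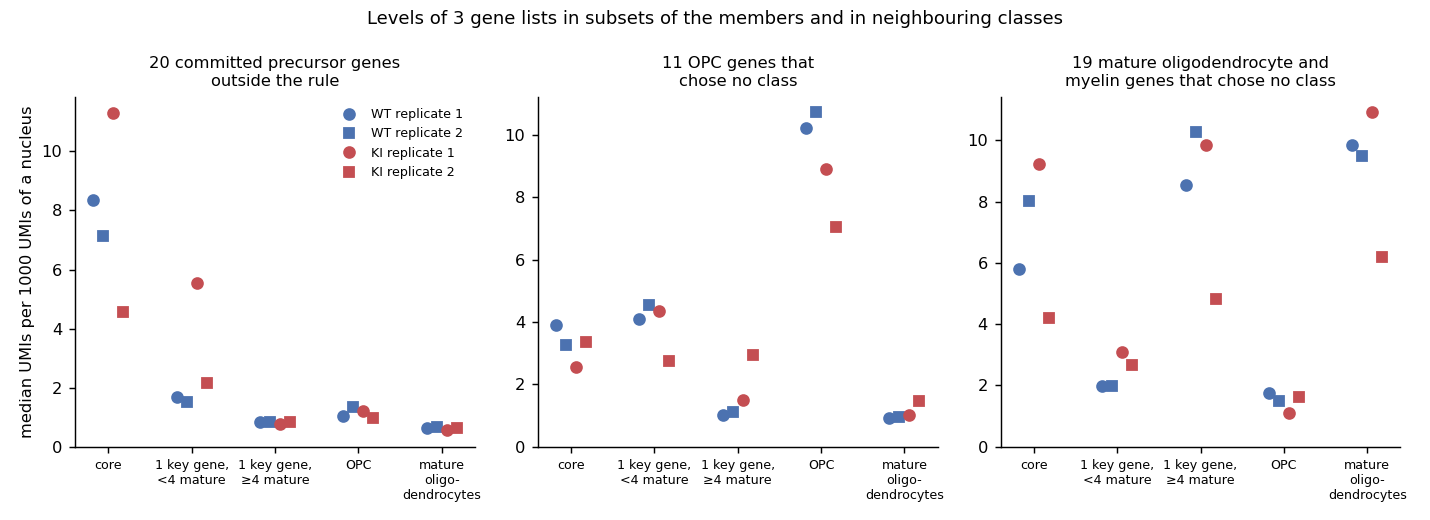
Median UMIs per 1000 UMIs of a nucleus for 3 gene lists without the genes that chose a class (y axis), in 3 subsets of the committed precursors and in OPC and mature oligodendrocytes (x axis). Each point is 1 library, blue for WT and red for KI. Core nuclei stood highest for the 20 genes outside the rule in all libraries, at 4.55 to 11.3, and nuclei with 1 key gene and at least 4 mature genes stood at 0.75 to 0.83.

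The key genes also differed in the company they kept. Of the 71 nuclei with a Bmp4 UMI, 15.5% had at least 4 of the 9 mature genes, against 50.6% of the nuclei without one, and of the 148 with a Gpr17 UMI 27.0% did, against 56.0%. Of the 213 nuclei with an Enpp6 UMI, 54.0% had at least 4 mature genes, against 23.5% of those without. These directions held in each of the 4 libraries. They are not independent of each other, since the rule asked for at least 1 of the 3 key genes and a nucleus without Enpp6 had to hold Bmp4 or Gpr17. Enpp6 was the only key gene in 144 nuclei, Gpr17 in 88 and Bmp4 in 21. In neurons, which should lack these genes, 0.309% to 0.653% of nuclei held a Bmp4 UMI, 1.23% to 2.55% a Gpr17 UMI and 1.45% to 3.26% an Enpp6 UMI, at a median of 7715.5 to 9209.5 UMIs per nucleus, while among mature oligodendrocytes Enpp6 was found in 4.93% to 11.3% and Bmp4 in 0.105% to 0.260%.

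Transcription factors of the lineage, outside the rule, were present. Sox10, which every stage of the lineage needs, had a UMI in 53.0%, 55.8%, 65.8% and 66.2% of the committed precursors, against 51.6% to 60.9% of OPC, 23.3% to 45.8% of mature oligodendrocytes and 3.31% to 6.14% of neurons. Nkx2-2, a factor of early differentiation, was found in 14.5%, 14.3%, 21.9% and 9.23%, against 8.64% to 10.8% of OPC and 1.14% to 6.12% of mature oligodendrocytes. Myrf, which switches on myelin genes, was found in 16.2%, 23.4%, 38.4% and 27.7%, against 7.73% to 13.1% of OPC and 17.1% to 24.2% of mature oligodendrocytes, whose nuclei held a median of 1775 to 2787 UMIs. Sox10 was thus found about as often as in OPC, and Myrf more often than in OPC in every library. Olig1 and Olig2 were found less often than in OPC, in 17.2% and 15.7% of all committed precursors against 27.1% and 23.5%. Mature oligodendrocytes held them in 15.0% and 5.17%.

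The genes that chose the nuclei were left out of the rankings against other classes that follow. Set against OPC, the 10 other genes with the highest ratio included members of the list above. 9630013A20Rik stood at 537, 1315, 1229 and 775 CPM (UMIs per 1000000 UMIs of a class in a library) in the committed precursors and at 38.2, 49.5, 50.5 and 91.1 in OPC, a ratio of the means of 16.8. Pik3r3, a regulatory subunit of PI3 kinase, stood at 297, 1039.6, 497 and 678 against 50.8 to 93.5 CPM (9.05-fold), and Cnksr3, a scaffold protein of the 20 genes above, at 115, 257, 241 and 93.7 against 19.3 to 24.8 CPM (8.11-fold). The transcription cofactor Eya2 (16.1-fold), the integrin-linked adaptor Parvb (9.05-fold) and the gene models Gm36988 (20.5-fold), Gm13187 (19.4-fold) and 9130019P16Rik (7.35-fold) belonged to the same 10 genes. The other two, Bnc2 (31.0-fold) and Mgp (12.6-fold), are genes that fibroblasts also express. Bnc2 had UMIs in 5, 7, 1 and 6 nuclei, and the 8 markers of vessels, mural cells and fibroblasts summed to 48.0, 80.2, 23.2 and 44.4 CPM in the committed precursors.

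Lower than in OPC were the guidance cue Ntn1 (27.7, 25.7, 20.3 and 4.93 CPM against 44.7 to 107, 4.22-fold), the factor Etv4, a target of growth factor signalling (7.39, 12.8, 17.4 and 17.3 CPM against 38.7 to 85.1, 4.33-fold), and the proteoglycan Cspg5 (53.6, 109, 84.3 and 71.5 CPM against 193 to 354, 3.61-fold). The potassium channel Kcnh8 (4.24-fold), the receptor Calcrl (3.69-fold), Gsap (3.503-fold) and the gene models 6330576A10Rik (4.71-fold), Gm38505 (4.18-fold), E130114P18Rik (4.14-fold) and Gm42948 (3.804-fold) completed the 10 genes. Pdgfra, which the rule limited and which chose OPC, stood outside this ranking.

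Set against mature oligodendrocytes, 9630013A20Rik (25.6-fold), Bnc2 (57.1-fold) and Gm13187 (24.2-fold) were again among the 10 highest outside the rule. They were joined by Sox6, a factor of precursors that also served to choose OPC (718, 985, 654 and 728 CPM against 31.5 to 50.7, 18.7-fold), the matrix protein Ltbp1 (97.9, 106, 137 and 93.7 CPM against 2.89 to 8.63, 17.9-fold), Ppfibp1 (17.3-fold) and Afap1l2 (16.4-fold). The 10 lowest included 3 genes that chose the mature class, Opalin (3.04-fold), Ermn (2.35-fold) and Mal (2.22-fold). Of the 332 committed precursors, 143 held at least 4 of the 9 mature genes themselves.

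The share of committed precursors among all nuclei was compared between genotypes. It was 0.732%, 0.585%, 0.581% and 0.478%, with exact 95% intervals from counting of 0.606% to 0.877%, 0.462% to 0.731%, 0.456% to 0.731% and 0.369% to 0.609%. The mean was 0.659% ± 0.104 in WT and 0.530% ± 0.0731 in KI (SD, n = 2 each). Both KI libraries lay below both WT libraries, with WT replicate 2 and KI replicate 1 nearly level. The groups overlapped, with KI replicate 1 above WT replicate 2, when doublet scores above 0.25 were left out (0.710%, 0.542%, 0.553% and 0.484%, exact permutation p = 0.667) and when at least 1000 genes per nucleus were asked for (0.800%, 0.597%, 0.632% and 0.494%, exact permutation p = 0.667). They did not overlap with each nucleus thinned to 2000 UMIs (0.343%, 0.384%, 0.321% and 0.194%, exact permutation p = 0.333). With all 332 nuclei the exact two-sided permutation test gave p = 0.333, the smallest that 2 against 2 libraries can give, so that no share could pass at this size. Among nuclei of the oligodendrocyte lineage the shares were 5.21%, 5.37%, 3.63% and 4.57%, which did not overlap between genotypes (exact permutation p = 0.333). OPC made up 1.36%, 1.55%, 1.75% and 1.63% of all nuclei and mature oligodendrocytes 12.0%, 8.75%, 13.7% and 8.35%.

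Core nuclei stood further apart. They numbered 33 and 23 in WT and 11 and 12 in KI, which is 0.206%, 0.175%, 0.0876% and 0.0883% of all nuclei, with intervals of 0.142% to 0.290%, 0.111% to 0.262%, 0.0437% to 0.157% and 0.0456% to 0.154%. The mean KI share was 0.461 times the mean WT share, and both KI libraries lay below both WT libraries (exact permutation p = 0.333). With each nucleus thinned to 2000 UMIs, which left out 9439 shallower nuclei (3154, 1970, 2600 and 1715), the core nuclei numbered 16, 12, 3 and 3, or 0.239 times the WT share in KI. Per 100 OPC there were 15.2, 11.3, 5.0 and 5.43 core nuclei. A difference of this kind can come from fewer nuclei of the stage or from less RNA of the key genes in each, and the rule cannot tell these apart.

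Nuclei were therefore also counted by the 20 genes that the rule left out, with at least 5 of them detected and at least 5 of their UMIs per 1000 and with the same limits on other cell types. These limits were set after the data had been seen. They took 43, 26, 30 and 28 nuclei, or 0.269%, 0.198%, 0.239% and 0.206% of all nuclei, with intervals of 0.195% to 0.362%, 0.129% to 0.289%, 0.161% to 0.341% and 0.137% to 0.297%. KI and WT overlapped, and the mean KI share was 0.953 times that of WT (exact permutation p = 1). Of these 127 nuclei, 105 were committed precursors by the rule (37, 25, 23 and 20), and 24, 14, 6 and 5 were core nuclei. Of the 22 others, 7 came from WT and 15 from KI, and 2 of the former and 6 of the latter were classed as mature oligodendrocytes, so that the KI share held more nuclei that the rule did not take.

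**Figure D2:**
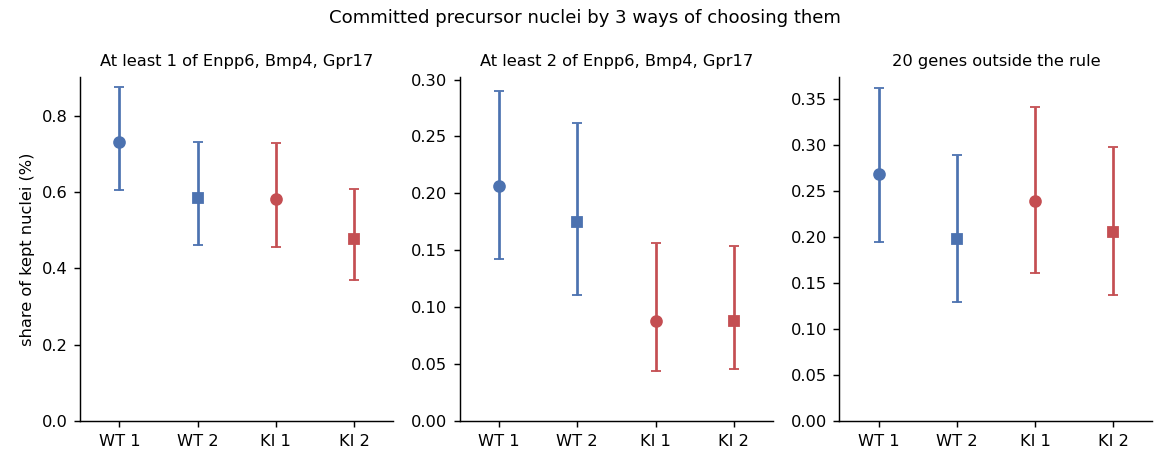
Share of all kept nuclei (y axis, %) in each library (x axis) for nuclei with at least 1 key gene, for core nuclei with at least 2, and for nuclei chosen by 20 genes outside the rule. Points are libraries and bars exact 95% counting intervals. Core nuclei stood at 0.206% and 0.175% in WT and at 0.0876% and 0.0883% in KI, while the third panel shows overlapping shares of 0.198% to 0.269%.

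In these 127 nuclei the genes of the rule could be compared without having chosen them. Bmp4 was at 220, 152, 55.9 and 88.3 CPM, from 29, 14, 6 and 9 UMIs. Gpr17 was at 273, 260, 112 and 58.8 CPM, from 36, 24, 12 and 6 UMIs, and was found in 24, 13, 10 and 5 nuclei. Both KI libraries lay below both WT libraries for Bmp4 and Gpr17, with KI means 0.388 and 0.320 times those of WT. Across the 2069 genes tested in these nuclei neither passed (log2 fold change -1.25 ± 0.45 SE for Bmp4, adjusted p = 0.855, and -1.49 ± 0.44 for Gpr17, adjusted p = 0.855), and 33.9% of those genes had groups that did not overlap.

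The other genes of the rule were closer. Enpp6 was at 772, 803, 503 and 667 CPM and Neu4 at 326, 315, 121 and 255 CPM in the 127 nuclei, both lower in KI without overlap (log2 fold changes -0.31 ± 0.39 and -0.65 ± 0.45). Bcas1, at 3180, 3224, 3291 and 3226 CPM, was level in all libraries, and Tcf7l2 (878, 1693, 1240 and 1039 CPM) and Itpr2 (795, 999, 1370 and 726 CPM) overlapped between genotypes. Among the committed precursors themselves, which these genes chose, Bmp4 stood at 86.8, 103, 26.2 and 41.9 CPM and was found in 28, 21, 7 and 15 nuclei, and Gpr17 at 146, 209, 84.3 and 66.6 CPM and in 54, 44, 26 and 24 nuclei. Enpp6 stood at 294, 330, 273 and 217 CPM there, and Bcas1 at 1114, 1338, 1328 and 883 CPM.

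**Figure D3:**
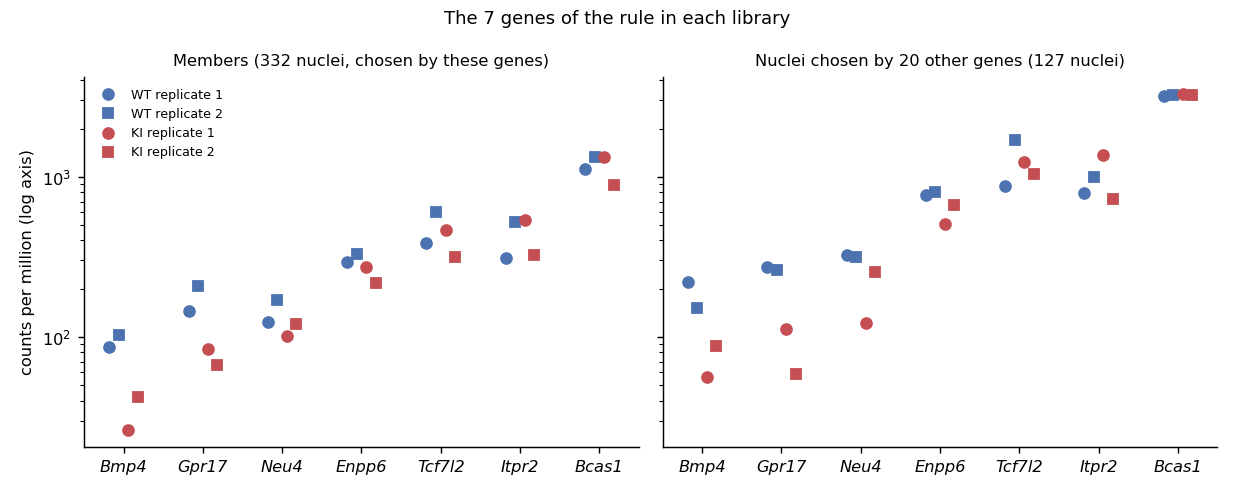
CPM (log axis) of the 7 genes of the rule in each library, in the 332 nuclei that these genes chose and in the 127 nuclei chosen by 20 other genes. Points are libraries, blue for WT and red for KI. In the second panel Bmp4 and Gpr17 are lower in both KI libraries than in both WT libraries and Bcas1 is level, while the first panel shows the values by which the nuclei were chosen.

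Mature oligodendrocyte genes, outside the rule, were then counted in the committed precursors. At least 4 of the 9 were found in 47.0%, 29.9%, 54.8% and 38.5% of the nuclei, a mean of 38.4% ± 12.1 in WT and of 46.6% ± 11.5 in KI (SD, n = 2 each). The libraries of the genotypes overlapped (exact permutation p = 0.667), and without WT replicate 2 the direction turned, with 47.0% in WT. In core nuclei the shares were 24.2%, 17.4%, 36.4% and 33.3%, from 8, 4, 4 and 4 nuclei (exact permutation p = 0.333).

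Expression in KI was compared with WT over the summed counts of the committed precursors, to ask which genes of these nuclei differ with the R87C change. The sums mix the subsets above in unlike shares, with core nuclei at 28.2%, 29.9%, 15.1% and 18.5% of the committed precursors. The part of this mix in the values was not tested. Of 6582 genes tested none passed an adjusted p of 0.05 (edgeR quasi-likelihood test), 0.0% of those tested. The smallest adjusted p was 0.0742, for Cryab. At an unadjusted p under 0.05, 209 genes (3.18%) were higher and 202 (3.07%) lower in KI, 411 in all, and DESeq2 gave 0 genes past its adjusted threshold and 104 unadjusted. Groups did not overlap for 37.3% of the genes. On simulated counts for this comparison the test recovered 15.6% of genes changed 2-fold and 86.9% of those changed 4-fold. The simulation gave every gene the same dispersion and did not model single nuclei that hold many UMIs of a gene. Recovery in the real counts may therefore be lower. The genes below were named by the smallest unadjusted p among genes whose groups did not overlap, with a mean of at least 20 CPM. They are given as values.

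Among the 10 genes higher in KI, Acaca and Pla2g3 act on lipids. Acaca, the first enzyme of fatty acid synthesis, was at 247, 173, 593 and 422 CPM (log2 fold change 1.38 ± 0.31 SE, adjusted p = 0.191). Gm11437, a gene on the other strand inside Acaca (chromosome 11, 84148351 to 84167476, GRCm38), was at 36.9, 22.5, 119 and 91.3 CPM (1.87 ± 0.37). Pla2g3, a phospholipase, was at 16.6, 28.9, 78.5 and 66.6 CPM (1.86 ± 0.42). The KI libraries were above the WT libraries in each, as the choice of genes required, and the sum for Pla2g3 rested on 9 to 27 UMIs per library.

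Ddc, the decarboxylase that makes dopamine and serotonin from their precursors, was at 24.0, 35.3, 90.1 and 109 CPM (1.92 ± 0.37, adjusted p = 0.153). It passed in OPC (5.62, 5.08, 41.9 and 56.7 CPM, log2 fold change 3.30, adjusted p = 0.00576) and in mature oligodendrocytes (37.7, 35.3, 177 and 145 CPM, 2.22, adjusted p = 0.0466). In neurons it stood at 2.23, 1.75, 4.68 and 17.3 CPM, higher in both KI libraries. Hif3a, a member of the hypoxia-inducible factor family, was at 16.6, 38.5, 148 and 64.1 CPM (2.16 ± 0.48, adjusted p = 0.191), against 20.2, 20.3, 103 and 97.4 CPM in OPC, where it passed (2.42, adjusted p = 0.00227). Rnpep, an aminopeptidase (48.0, 25.7, 110 and 133 CPM, 1.77 ± 0.36), and the long noncoding RNA A230006K03Rik (102, 89.8, 206 and 249 CPM, 1.37 ± 0.29) also passed in OPC, and the latter stood at 301, 312, 579 and 527 CPM in neurons. In OPC 23 of 10106 genes passed (0.228%), and in mature oligodendrocytes 2 of 14813 (0.0135%). All classes come from the same 4 mice.

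Genes of transcription and membrane signalling completed the group. Polr2a, the large subunit of RNA polymerase II, was at 18.5, 22.5, 102 and 71.5 CPM (2.21 ± 0.40, adjusted p = 0.153) and at 29.3, 32.1, 74.8 and 50.6 CPM in neurons. Kcnip1, a potassium channel partner, was at 48.0, 54.5, 142 and 136 CPM (1.57 ± 0.32), and Grm8, a metabotropic glutamate receptor, at 57.3, 96.3, 154 and 220 CPM (1.46 ± 0.34), where 1 nucleus of KI replicate 1 held 29 of its 53 UMIs. The log2 fold change of Grm8 was 0.26 in core nuclei and 0.60 in nuclei with at least 4 mature genes, against 2.52 with the latter left out.

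The gene with the smallest p was lower in KI. Cryab, a small heat shock protein made by oligodendrocytes, was at 126, 86.6, 11.6 and 17.3 CPM, from 68, 27, 4 and 7 UMIs (log2 fold change -2.74 ± 0.42, adjusted p = 0.0742). It stood at 52.9, 25.4, 5.37 and 16.8 CPM in OPC and at 192, 112, 31.2 and 36.6 CPM in mature oligodendrocytes, and at 18.1, 7.09, 3.32 and 6.37 CPM in neurons. Hspa8, a constitutive chaperone, was at 268, 308, 78.5 and 136 CPM (-1.28 ± 0.32) and was lower in KI in the neurons too (174, 124, 59.3 and 83.3 CPM). Gjc3, a connexin of the oligodendrocyte lineage, was at 600, 805, 230 and 296 CPM (-1.29 ± 0.29, adjusted p = 0.195), and passed in OPC (398, 447, 166 and 189 CPM, -1.13, adjusted p = 0.0282). Ndrg1, a myelination gene that is mutated in an inherited neuropathy, was at 115, 89.8, 17.4 and 34.5 CPM (-1.83 ± 0.39).

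The transcription factor Foxp2 was at 161, 141, 43.6 and 44.4 CPM (-1.65 ± 0.32, adjusted p = 0.153), and 1 nucleus of WT replicate 1 held 46 of its 87 UMIs. Bnc2, a zinc finger protein, was at 133, 141, 2.91 and 37.0 CPM (-2.56 ± 0.51), from 5, 7, 1 and 6 nuclei, 1 of which held 42 of the 72 UMIs of WT replicate 1. None of the 127 nuclei chosen by the 20 other genes held a Bnc2 UMI. Ror1, a Wnt receptor, was at 133, 89.8, 32.0 and 34.5 CPM (-1.64 ± 0.36), Rnf112, a RING finger protein, at 72.03, 103, 14.5 and 27.1 CPM (-1.87 ± 0.42), and the noncoding RNAs Gm10754 and C430049B03Rik at 62.8, 70.6, 17.4 and 4.93 CPM and at 109, 80.2, 17.4 and 32.1 CPM. Neurons held Ror1 at 133, 125, 59.1 and 81.4 CPM, Rnf112 at 110, 123, 42.4 and 61.7 CPM and Gm10754 at 150, 150, 94.4 and 86.2 CPM. Their mean level was above that of the committed precursors for 7 of the 20 named genes (Kcnip1, A230006K03Rik, Pla2g3, Grm8, Gm10754, Ror1 and Rnf112). For 15 of the 20, neurons had the same direction of KI against WT without overlap of the genotypes, 9 of the 10 higher and 6 of the 10 lower. The part of free RNA in the values of the committed precursors was not tested.

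With 1 library left out, the log2 fold changes moved furthest for Bnc2, from -5.29 without KI replicate 2 to -1.75 without KI replicate 1. They ran from -3.54 without KI replicate 1 to -1.77 without KI replicate 2 for Gm10754, from 1.47 without KI replicate 1 to 2.75 without WT replicate 2 for Hif3a and from -1.73 without KI replicate 2 to -0.95 without KI replicate 1 for Hspa8. For the other 16 genes the extremes lay within 1.68-fold of each other on the log2 scale, and no direction turned. Counted over all 20 genes, the extremes of 11 lay more than 1.5-fold apart on that scale.

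**Figure D4:**
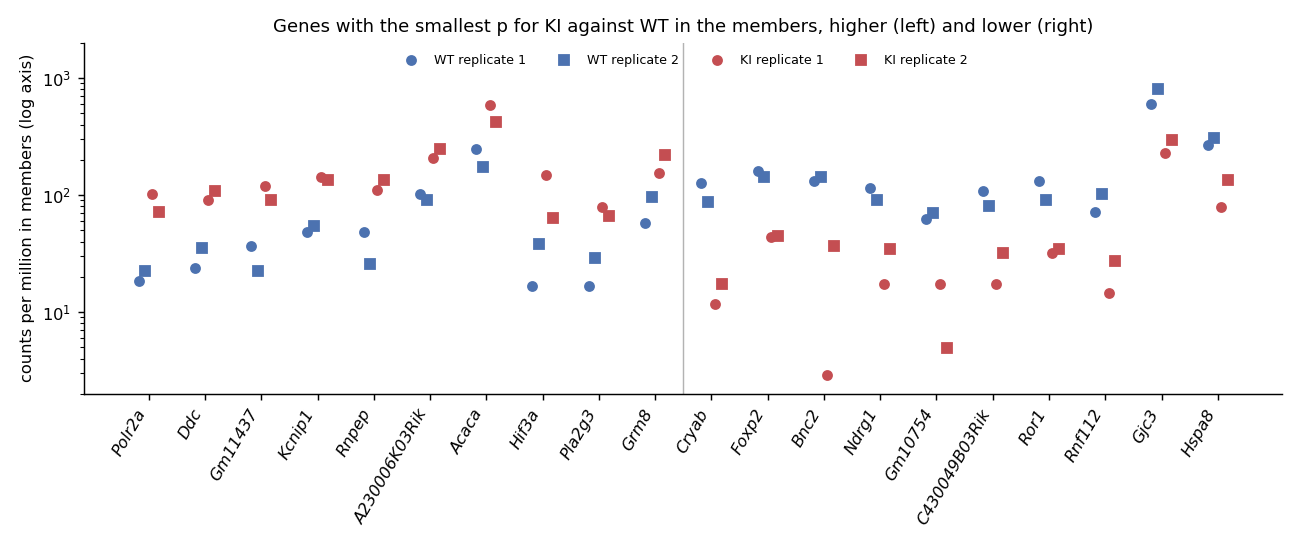
CPM in the committed precursors (log axis) of the 10 genes higher and the 10 genes lower in KI with the smallest unadjusted p among genes with a mean of at least 20 CPM. Each point is 1 library, and by the choice of genes the KI and WT points of a gene do not overlap. No gene passed an adjusted p of 0.05.

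The values of these 20 genes in OPC and in mature oligodendrocytes are set beside those of the committed precursors. The classes share their mice and their free RNA, so that the values are not independent. The log2 fold change turned in sign for Gm10754 in OPC (0.34) and for Foxp2 in mature oligodendrocytes (1.44). Every other gene tested in these classes kept the sign that it had in the committed precursors, and Bnc2 was tested in neither.

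**Figure D5:**
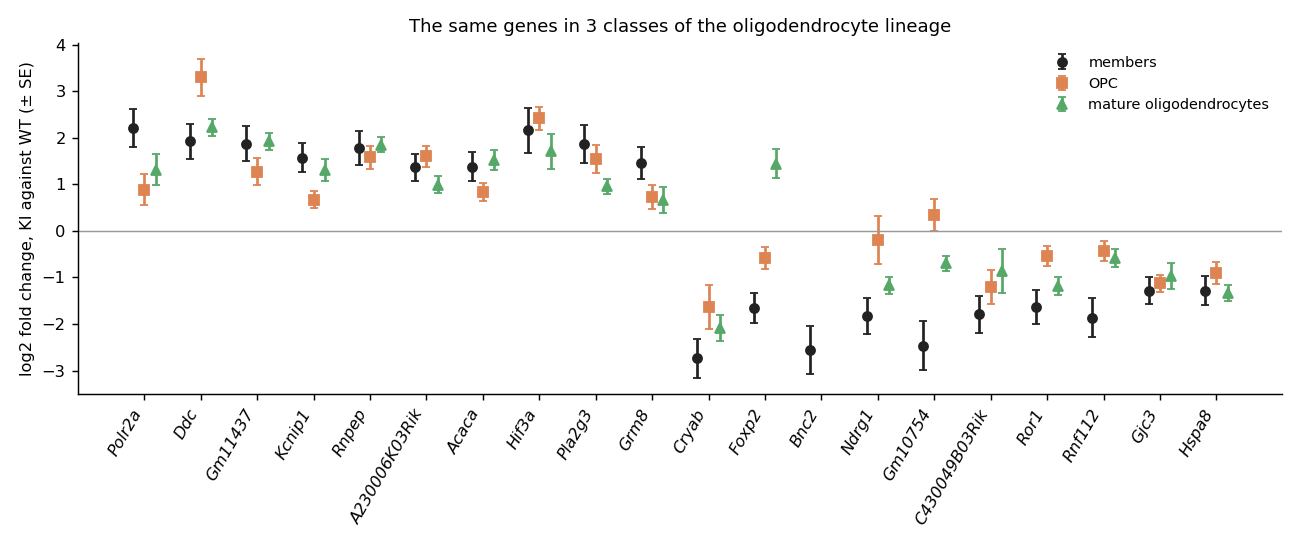
Log2 fold change of KI against WT with its standard error (y axis) for the same 20 genes, in committed precursors (black), OPC (orange) and mature oligodendrocytes (green). Cryab stands at -2.74, -1.63 and -2.09 in the 3 classes, and Foxp2 at -1.65, -0.58 and 1.44. Bnc2 was tested in committed precursors alone.

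Gene lists of the stage and its pathways are described by counts, beside a median log2 fold change of 0.03 over all genes tested (-0.11 when counts were scaled by library totals alone). Of the 20 committed precursor genes outside the rule, 14 could be tested, none had an unadjusted p under 0.05, and their median was 0.07. Fyn was at 968, 1039.5, 1183 and 829 CPM (0.13 ± 0.28), Tns3 at 484, 655, 822 and 518 CPM (0.36 ± 0.31) and 9630013A20Rik at 0.25 ± 0.38, with overlapping genotypes in each. Of 26 transcription factors of the lineage 19 were tested, with a median of 0.17. Zeb2, which blocks BMP and Wnt signalling in maturing oligodendrocytes, was the only one with an unadjusted p under 0.05, at 1551, 1546, 965 and 846 CPM (-0.65 ± 0.27, adjusted p = 0.75). Sox10 was at 164, 247, 308 and 239 CPM (0.55 ± 0.30).

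Of 15 genes of OPC outside the rule that were tested, 6 were higher and 9 lower, with a median of -0.02, and Lrrtm3, a synaptic adhesion protein, was the only one with an unadjusted p under 0.05 (227, 282, 357 and 449 CPM, 0.80 ± 0.29). Of 23 genes of mature oligodendrocytes and myelin, 15 were higher and 8 lower, with a median of 0.18. The myelin protein gene Mog was at 209, 96.3, 436 and 173 CPM (1.08 ± 0.42, adjusted p = 0.75), with WT replicate 1 above KI replicate 2. Lower in KI at an unadjusted p under 0.05 were Gjc3 (-1.29 ± 0.29, adjusted p = 0.195) and Qdpr, an enzyme of biopterin recycling (79.4, 28.9, 14.5 and 32.1 CPM, -1.14 ± 0.52, adjusted p = 0.771), the latter with overlapping genotypes. Of 10 tested genes of the BMP pathway outside the rule 7 were negative, the median was -0.11, and Zeb2 alone had an unadjusted p under 0.05. The receptors Bmpr1a (102, 99.5, 81.4 and 109 CPM, 0.05 ± 0.31) and Bmpr2 (151, 164, 75.6 and 128 CPM, -0.49 ± 0.31) did not. The inhibitors Nog and Chrdl1 had no UMI in any library. Of 10 Wnt genes only the receptor Lgr5 had an unadjusted p under 0.05 (36.9, 41.7, 11.6 and 17.3 CPM, -1.27 ± 0.53), and the median was 0.10.

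Genes of the glucocorticoid and hypoxia response were listed with earlier results of these data known, so that their count is a description and no independent evidence of a direction. Of 20 genes 13 were tested, 0 passed an adjusted p of 0.05, 10 had positive values, and the median was 0.74. An unadjusted p under 0.05 was found for 6 genes higher in KI, against 3.18% of all genes, and for Cryab lower in KI. Beside Hif3a these were Sgk3, a kinase (142, 106, 244 and 311 CPM, 1.27 ± 0.30, adjusted p = 0.196), Sgk1, its relative and a glucocorticoid target (266, 186, 503 and 291 CPM, 0.92 ± 0.32), Errfi1, an inhibitor of the EGF receptor (66.5, 48.1, 177 and 81.4 CPM, 1.25 ± 0.39), the lipid droplet protein Plin4 (27.7, 19.3, 93.0 and 39.5 CPM, 1.53 ± 0.48) and Fkbp5, a chaperone of the glucocorticoid receptor (231, 141, 230 and 377 CPM, 0.81 ± 0.33). For Fkbp5 KI replicate 1 was level with WT replicate 1, where 1 nucleus held 40 of 125 UMIs. The receptor itself, Nr3c1, was at 120, 119, 81.4 and 83.9 CPM (-0.40 ± 0.30), and Tsc22d3, another glucocorticoid target, at 81.3, 32.1, 17.4 and 51.8 CPM (-0.63 ± 0.50). The median of the list was 0.63 in OPC and 0.91 in mature oligodendrocytes, with 2 genes past the threshold higher (Hif3a and Errfi1) and 1 lower (Vegfa) among 17 in OPC.

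Of 19 lipid carriers and transporters 13 were tested, 11 had positive values, and the median was 0.23. Apod, a secreted lipid carrier, was at 212, 186, 1752 and 279 CPM (2.47 ± 0.57, adjusted p = 0.195), so that KI replicate 1 stood far above the other libraries. Neurons held Apod in the same order of libraries, at 39.9, 21.3, 195 and 85.5 CPM, and the part of free RNA in the value of the committed precursors was not tested. Abca1, a cholesterol exporter, was at 81.3, 51.3, 151 and 101 CPM (0.999 ± 0.342) and at 16.6 to 29.1 CPM in neurons. Ptgds, prostaglandin D synthase, was at 508, 879, 1154 and 619 CPM (0.49 ± 0.35) and overlapped. Of 23 genes of cholesterol synthesis only 4 were tested, all lower in value, with a median of -0.36 and no unadjusted p under 0.05.

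Genes of the mutated complex gave no difference past the threshold. Cyfip2 was at 233, 330, 128 and 234 CPM (-0.49 ± 0.33, adjusted p = 0.87), with WT replicate 1 and KI replicate 2 level, and its level does not check the genotype, since the change alters 1 codon and 3' counts cannot show it. Its paralog Cyfip1 was at 137, 116, 102 and 93.7 CPM (-0.25 ± 0.30). Of 9 tested genes of the complex 7 were lower in value, with a median of -0.25, and the small subunit Brk1 was the only one with an unadjusted p under 0.05 (44.3, 61.0, 23.3 and 22.2 CPM, -1.04 ± 0.44, adjusted p = 0.75). It stood at 43.2, 42.4, 20.6 and 29.6 CPM in neurons.

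For 31 receptors and channels of precursors the median was 0.15, with the kainate receptor Grik3 lower at an unadjusted p under 0.05 (75.7, 80.2, 43.6 and 41.9 CPM, -0.73 ± 0.34). For 31 genes of adhesion, guidance and Notch it was -0.00, and 2 genes had an unadjusted p under 0.05. These were Nrxn3 (1973, 1312, 2072 and 3148 CPM, 0.79 ± 0.31, adjusted p = 0.751), which neurons hold at 5236 to 6876 CPM, and the guidance cue Slit2 (144, 96.3, 52.3 and 81.4 CPM, -0.73 ± 0.34, adjusted p = 0.782). No cell cycle gene was abundant enough to test, since 15 of them came to 42.5, 35.3, 72.7 and 19.7 CPM in all, and of 18 immediate early genes 1 was tested. Of 12 neuron markers, which summed to 5414 to 8278 CPM by library, 9 were tested outside the rule, 0 had an unadjusted p under 0.05 and the median was 0.24. Summed over nuclei they took 6.78 UMIs per 1000 in committed precursors, 7.01 in OPC and 8.34 in mature oligodendrocytes. Meg3 and Syt1, the highest of them, had means of 3059 and 1307 CPM here and of 8680 and 3261 CPM in neurons. Nrgn and Prox1 (100 and 99.8 CPM) were not below neurons (97.9 and 54.8 CPM).

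Whether the effect of the change differed between committed precursors and their neighbours was tested by a class-by-genotype term. Against mature oligodendrocytes 5 of 13657 genes passed (0.0366%), all with a negative difference, that is, a lower log2 fold change of KI against WT in committed precursors. For Foxp2 the difference was -3.14 ± 0.37 (adjusted p = 7.72e-05), since mature oligodendrocytes held it at 9.11, 13.3, 34.5 and 21.9 CPM, higher in KI, and committed precursors at lower values in KI. Lhfp, a tetraspan membrane protein (-2.26 ± 0.37, adjusted p = 0.0163), was at 88.7, 67.4, 34.9 and 51.8 CPM in committed precursors and at 20.01, 11.8, 48.8 and 39.7 CPM in mature oligodendrocytes, and 1 nucleus held 28 of its 48 UMIs in the committed precursors of WT replicate 1. The glypican Gpc5 (-1.22 ± 0.23), Gm20713, which lies within Gpc5 on the other strand (-1.63 ± 0.28), and the protocadherin Pcdh7 (-1.04 ± 0.19) also passed. In neurons Gpc5 stood at 245, 240, 597 and 752 CPM and Pcdh7 at 424, 493, 651 and 698 CPM, higher in KI as in mature oligodendrocytes, and the part of free RNA in the difference was not tested. Foxp2 passed in each edgeR alternative. With doublet scores above 0.25 left out, 9 genes passed, of which 3 were among these 5, with Gpc5 (-1.31, adjusted p = 0.0645) and Pcdh7 (-1.23, adjusted p = 0.0546) no longer past the threshold at differences no smaller than before. Gpc5 and Gm20713 were also lost without WT replicate 2, at differences of -0.81 and -1.34. Gpc5, Pcdh7 and Lhfp were lost without KI replicate 1 (-1.22, -1.07 and -1.87) and Pcdh7 without KI replicate 2 (-1.01). A limma-voom fit gave 0 genes in both comparisons.

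Against OPC 3 of 9869 genes passed (0.0304%). For Gm15680, a noncoding gene model, the difference was -3.43 ± 0.57 (adjusted p = 0.0103), with 44.3, 44.9, 20.3 and 12.3 CPM in committed precursors and 11.2, 8.89, 47.3 and 34.3 CPM in OPC. It no longer passed with doublet scores above 0.25 left out (-2.84, adjusted p = 1.0), where 2 genes passed, Spag16 and Dnah12. Spag16 (7.48 ± 0.99) and Dnah12 (7.26 ± 1.20), both genes of motile cilia, rested on single nuclei: in OPC of WT replicate 2 a single nucleus held all 93 UMIs of Spag16 and a single nucleus all 75 of Dnah12, and in committed precursors of KI replicate 1 a single nucleus held 14 of 14 UMIs of Spag16 and a single nucleus 16 of 17 of Dnah12. Without WT replicate 2, 3 genes passed, of which Gm15680 alone was among these 3.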

How the data were processed

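Nuclei of both hippocampi of 2 WT and 2 Cyfip2+/R87C mice were profiled by 10x Genomics 3' sequencing, 1 library per mouse. The authors deposited filtered matrices of UMI counts per gene and nucleus, unnormalized, made with Cell Ranger (7.0.1 per the file headers) on mm10 per the submitters' processing notes. Whether intronic reads were counted is not given in the sources used here. A barcode counted as a nucleus from 500 detected genes upward if mitochondrial genes took less than 5% of its UMIs. Doublets were scored with Scrublet (scanpy 1.11.5) and left in. Counts were summed per library and class and tested with edgeR 4.0.16 (TMM, filterByExpr, quasi-likelihood, Benjamini-Hochberg) in R 4.3.3, with the class-by-genotype term in a fit that kept library as a block. DESeq2 1.42.0 and limma 3.58.1 served as alternatives. The study tested single nuclei, which are not replicates, so that design was not followed. Members and lists were chosen with earlier results of these data known. The named genes were the 10 per direction with the largest log2 fold change past an adjusted p of 0.05, filled with the smallest unadjusted p at a mean of at least 20 CPM without overlap of the groups. For classes they were the 10 per direction with the largest ratio at 50 CPM or more and the same direction in 4 libraries, without the genes of the rule. The test was checked on simulated counts. Intervals are exact (Clopper-Pearson) and cover counting error only. Coordinates are from GENCODE for GRCm38. A result on 1 further gene is not reported here.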

Additional observations from a re-analysis of the deposited data

Results flagged for a closer look

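The difference in the KI against WT log2 fold change between committed precursors and OPC passed for Spag16 at 7.48, Dnah12 at 7.26 and Gm15680 at -3.43. Spag16 and Dnah12 rested on single nuclei, as given above, and the levels of Gm15680 in neurons were 86.2, 76.0, 112 and 93.7 CPM. The difference to mature oligodendrocytes passed for Foxp2 at -3.14, Lhfp at -2.26, Gm20713 at -1.63, Gpc5 at -1.22 and Pcdh7 at -1.04. Committed precursors held Gpc5 at 718, 1027, 689 and 676 CPM and mature oligodendrocytes at 251, 210, 427 and 431 CPM. Gm20713 lies inside Gpc5 on the other strand. Pcdh7 was at 1073, 1306, 817 and 1061 CPM in committed precursors and at 206, 248, 310 and 432 CPM in mature oligodendrocytes.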

How the results depend on the processing

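The count of genes past an adjusted p of 0.05 in committed precursors was 0 with RLE factors, DESeq2, doublet scores above 0.25 left out, core nuclei alone, either part of the split at 4 mature genes and the nuclei chosen by 20 other genes (chosen after seeing the data). It was 1 with library totals, 1 with at least 1000 genes per nucleus, 36 with no filter on low counts and 5 to 169 with 1 library left out (5 without WT replicate 1, 12 without WT replicate 2, 41 without KI replicate 1 and 169 without KI replicate 2, where the lone library is assumed to vary like the others). Replicate numbers are shared between genotypes, and whether they pair the mice is not known. The correlation of deviations was 0.107 over 2 pairs, too few to settle this, and the replicate block gave 47 genes. For the difference to OPC, 3 genes became 22 with no filter, 3 to 35 with 1 library left out (23 without WT replicate 1, 3 without WT replicate 2, 12 without KI replicate 1 and 35 without KI replicate 2), 0 with limma-voom, 2 with library totals (Dnah12 lost) and 2 without doublets (Gm15680 lost). For the difference to mature oligodendrocytes, 5 genes became 13 with no filter, 9 without doublets (3 of the 5 among them), 3 to 40 with 1 library left out (40 without WT replicate 1, 11 without WT replicate 2, 3 without KI replicate 1 and 23 without KI replicate 2, with 5, 3, 2 and 4 of the 5 among them) and 0 with limma-voom. The share of nuclei with at least 4 mature genes turned to a log2 ratio of -0.0117 without WT replicate 2, and with 1 library left out it ranged from -0.0117 to 0.642. Of 325 values of 25 genes under alternatives, 239 kept direction and side of the threshold, 82 passed it newly and 4 turned in direction: Gpc5 at 0.036 without WT replicate 2 (-0.466 to 0.036 with 1 library left out), at 0.18 in nuclei with at least 4 mature genes and at 1.28 in the nuclei chosen by 20 other genes, and Pcdh7 at 0.15 in nuclei with at least 4 mature genes. The causes were not tested. Summed counts of 311674 to 541427 UMIs per library limit what small changes can show.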

Other observations

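Of the 20 genes named for KI against WT, 7 lie on chromosome 11, which holds Cyfip2: Polr2a, Ddc, Gm11437, Kcnip1, Acaca and Pla2g3 among the higher and Rnf112 among the lower. Chromosome 11 holds 7.23% of the genes tested, and the 7 genes start 12.6 to 42.7 Mb from the start of Cyfip2. This was seen after the values were known. Over all genes tested in committed precursors, 6.72% of those on chromosome 11 had an unadjusted p under 0.05, against 6.24% of all genes, 10.6% on chromosome 6 and 9.23% on chromosome 10.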
